A study of Mus musculus with 12 samples.

Results

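Loss of the type I interferon receptor was examined at day 7 of Pneumocystis infection by setting the 3 IFNAR-/- day 7 arrays against the 3 wildtype day 7 arrays, 6 of the 12 arrays of the study, across all 18193 genes that could be named. IFNAR-/- mice lack this receptor. The labels do not give the altered part of the gene, the strain, the age or the sex of the mice, and they name neither a Cre nor a conditional allele. Every mouse, wildtype mice included, had received Pneumocystis, a fungus of the lung, into the trachea, and the 12 arrays hold no uninfected mouse. The RNA of each array came from the CD11c+ lung cells of 1 mouse, taken with magnetic beads from digested lung. The same genotypes were also taken at day 14, with 3 mice each, and the study's title calls the mice CD4 T cell-competent. The submitters' question was whether the type I interferon response starts in the CD11c+ cells of an infected lung.

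Type I interferons, the interferon alphas and interferon beta, bind a receptor made of Ifnar1 and Ifnar2. The kinases Tyk2 and Jak1 then activate transcription factors, Stat2 among them, which join Irf9 and bind the interferon-stimulated response element (ISRE) in promoters of antiviral genes. CD11c marks alveolar macrophages and dendritic cells of the lung, the cells that take up and present inhaled microbes.

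The deposited values are ratios to about the median of each probe set among the arrays and are used here as log2 ratios, averaged per gene. A value of 1 is therefore 2-fold above a gene's own median, and levels cannot be compared between genes. Differences are IFNAR-/- minus wildtype with the standard error (SE) of a limma fit and n = 3 arrays per group, and a gene was called where its Benjamini-Hochberg adjusted p over all genes was under 0.05. At day 7, 481 genes (2.64%) were called, 246 lower (1.35%) and 235 higher (1.29%) in IFNAR-/- mice. Counts of called members of any list below are to be read against these shares. The values of the groups did not overlap for any of the 481 called genes. The call itself favours such genes, so a lack of overlap in a called gene adds no support, here or below. Of all genes 11.6% had every IFNAR-/- array below every wildtype array and 12.4% the reverse. A difference of at least 2-fold was found for 139 of the lower and 94 of the higher genes.

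Some arrays stood apart. IFNAR-/- mouse 3 and wildtype mouse 1 had the highest medians of the epithelial markers (2.09 and 1.86), the endothelial markers (2.44 and 1.71) and the fibroblast markers (2.21 and 0.94) of the 6 arrays. IFNAR-/- mouse 3 also had the highest median of the neutrophil markers (1.87). It alone had a low Xist, the RNA of the inactive X chromosome (-3.98, against -1.20 on the next lowest of all arrays). It alone had a high Eif2s3y, a gene of the Y chromosome (2.89, against 0.20 on the next highest). The sex of the mice is not given. Its poly-A control signal, a mean log2 ratio of control probe sets, was -3.18, against 0.50 to 1.91 on the other day 7 arrays. Without both IFNAR-/- mouse 3 and wildtype mouse 1, 111 genes were lower and 90 higher, and of the genes called with all arrays 91 of the 246 and 69 of the 235 were still called. Each of the 6 arrays was also left out in turn, and 93 lower and 69 higher genes were called in all 6 of these fits. Where a gene named below as having changed was called in fewer, this is written as the number of the 6 fits in which the call was lost, with the highest adjusted p that was reached. The part of other lung cells in the results was not tested. In a sorted pool, fewer cells of a type and less RNA per cell cannot be told apart.

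The receptor gene itself was the first check of the labels. Ifnar1 had log2 ratios of -0.53, -1.38 and -0.26 in IFNAR-/- mice, against 0.08, 0.64 and 0.07 in wildtype mice (difference -0.98 ± 0.35, adjusted p 0.208), so that every IFNAR-/- array was below every wildtype array without passing the test. Its 2 probe sets differed. One gave -1.34, -1.41 and -0.39 in IFNAR-/- mice, against 0.017, 0.63 and -0.017 in wildtype mice (difference -1.26 ± 0.30, adjusted p 0.0638 over probe sets). The other gave 0.28, -1.35 and -0.14 in IFNAR-/- mice, against 0.13, 0.64 and 0.15 in wildtype mice, which overlap. The labels do not say which part of the gene was altered, so a probe outside it checks nothing. Ifnar2, the other chain, had log2 ratios of 0.06, 0.11 and -0.11 in IFNAR-/- mice, against 0.15, 0.53 and -0.31 in wildtype mice (difference -0.10 ± 0.20, adjusted p 0.94). Itgax, the gene of CD11c itself, differed by 0.02 ± 0.13 (adjusted p 0.99), though a ratio cannot show how high its level was.

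Interferon beta RNA was higher in the mice that lack its receptor. Ifnb1 had log2 ratios of 2.44, 3.65 and 2.08 in IFNAR-/- mice, against -0.38, -0.33 and -0.22 in wildtype mice, 1 of the 20 largest rises (difference 3.03 ± 0.34, adjusted p 0.000908). All 3 IFNAR-/- mice were high and the 3 wildtype mice lay close together, and the rise was called whichever array was left out. At day 14 Ifnb1 had log2 ratios of -0.20, 0.31 and -0.08 in IFNAR-/- mice, against -0.55, 0.04 and 0.20 in wildtype mice, with no such separation (difference 0.11 ± 0.34, adjusted p 0.897), and the change between the days passed its own test (-2.92 ± 0.48, adjusted p 0.0141). Ifna2, an interferon alpha, had 0.41, 0.72 and 0.23 in IFNAR-/- mice, against 0.01, 0.03 and -0.38 in wildtype mice and was not called (difference 0.57 ± 0.17, adjusted p 0.112). Over the 19 measured interferon genes and inducing factors, 2 fell and 1, Ifnb1, rose, against 1.35% and 1.29% of all genes. The count that fell was 1 in 5 of the 6 fits that left out 1 array. Both that fell were transcription factors: Irf7, which drives interferon alpha genes and is itself interferon-induced, and Irf8. Irf7 had -0.08, 0.11 and 1.23 in IFNAR-/- mice, against 2.80, 3.65 and 2.60 in wildtype mice (difference -2.59 ± 0.36, adjusted p 0.00433). Irf3, which starts interferon beta transcription, had 0.15, 0.21 and 0.29 in IFNAR-/- mice, against -0.07, -0.26 and -0.11 in wildtype mice and was not called (difference 0.36 ± 0.09, adjusted p 0.0678).

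All genes of the receptor's signalling path that passed the test were lower in IFNAR-/- mice. Of 25 measured receptors, kinases, STATs and feedback regulators, 6 fell and none rose, against 1.35% of all genes called lower. Their median difference was -0.36 against -0.0011 over all genes. Feedback inhibitors were among them. Usp18, which blocks the receptor from within, had -1.72, -1.46 and -0.43 in IFNAR-/- mice, against 1.16, 1.86 and 0.71 in wildtype mice (difference -2.44 ± 0.36, adjusted p 0.00471). Socs1, an inhibitor of Jak kinases, had -2.53, -2.58 and -2.22 in IFNAR-/- mice, against -0.32, 0.03 and -1.17 in wildtype mice (difference -1.96 ± 0.28, adjusted p 0.00452). In both genes the highest IFNAR-/- mouse stayed below the lowest wildtype mouse by more than 1 log2 unit. Irf9, the DNA-binding part of the interferon complex, had -0.24, -0.63 and 0.09 in IFNAR-/- mice, against 0.67, 0.92 and 0.57 in wildtype mice (difference -0.98 ± 0.18, adjusted p 0.0149, lost in 2 of 6 fits, adjusted p up to 0.0679 without wildtype mouse 2). Stat4, which acts downstream of IL-12 and interferon, fell as well (difference -1.47 ± 0.23, adjusted p 0.00667). The count of this list lay between 3 and 7 with 1 array left out, lowest without IFNAR-/- mouse 1 and highest without wildtype mouse 3. Stat2 had -0.16, -0.86 and 0.38 in IFNAR-/- mice, against 1.03, 1.501 and 0.45 in wildtype mice, apart by a narrow margin at mouse 3 of both genotypes, and was not called (difference -1.21 ± 0.33, adjusted p 0.0879). Jak1 (-0.11 ± 0.23, adjusted p 0.944) and Tyk2 (0.03 ± 0.12, adjusted p 0.976) overlapped between the genotypes.

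Antiviral effector genes formed the largest block that was lower in IFNAR-/- mice. Of 48 measured effectors 21 fell and none rose, 46 lay below 0 and 32 had no overlap between the groups, and their median difference was -1.08. Over all genes 1.35% were called lower, 50.3% lay below 0 and 11.6% had every IFNAR-/- array below every wildtype array. Ifi27l2a, an interferon-induced mitochondrial protein, had -1.502, -1.06 and -0.33 in IFNAR-/- mice, against 2.46, 2.80 and 2.68 in wildtype mice (difference -3.61 ± 0.37, adjusted p 0.000595). Mx1, a GTPase that traps viral nucleoproteins, had -1.34, -1.49 and -0.82 in IFNAR-/- mice, against 1.75, 2.31 and 1.12 in wildtype mice (difference -2.94 ± 0.30, adjusted p 0.000587). Rtp4, an interferon-induced chaperone, had -0.64, -0.51 and 0.64 in IFNAR-/- mice, against 2.08, 2.55 and 1.91 in wildtype mice (difference -2.35 ± 0.31, adjusted p 0.00309). In all 3 genes the IFNAR-/- mice were low as a group, with mouse 3 the highest of them. Epsti1 (difference -1.07 ± 0.16, adjusted p 0.00522), Ifi35 (difference -0.74 ± 0.11, adjusted p 0.00689) and the GTPase gene Gm4951 (difference -3.34 ± 0.52, adjusted p 0.00721) fell too, and 11 of the 21 genes were called in all 6 fits that left out 1 array. The count lay between 11 and 27 with 1 array left out, lowest without IFNAR-/- mouse 1 and highest without IFNAR-/- mouse 3, and it was 19 without both IFNAR-/- mouse 3 and wildtype mouse 1.

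The OAS enzymes, which make the second messenger that activates RNase L on double-stranded RNA, held 4 genes that fell, and Oas1a had the lowest adjusted p of any gene that fell. Oas1a had -1.87, -1.36 and -2.28 in IFNAR-/- mice, against 1.598, 1.80 and 1.59 in wildtype mice (difference -3.50 ± 0.21, adjusted p 2.06e-05). Oas3 had 0.01, 0.34 and 0.47 in IFNAR-/- mice, against 3.03, 3.72 and 2.51 in wildtype mice (difference -2.81 ± 0.28, adjusted p 0.000565). Oas2 had -0.84, -0.64 and 0.25 in IFNAR-/- mice, against 1.20, 1.63 and 1.10 in wildtype mice (difference -1.72 ± 0.25, adjusted p 0.00446). The genotypes were far apart in all 3 genes and the 3 wildtype mice were near each other for Oas1a. Oasl2, an OAS-like protein, had -0.96, -0.74 and 1.73 in IFNAR-/- mice, against 3.27, 3.86 and 2.55 in wildtype mice (difference -3.22 ± 0.62, adjusted p 0.0205, lost in 4 of 6 fits, adjusted p up to 0.0858 without wildtype mouse 2), with IFNAR-/- mouse 3 nearer to the wildtype mice than to the other IFNAR-/- mice. Oasl1 (difference -1.44 ± 0.41, adjusted p 0.102) and Oas1c (difference -0.69 ± 0.17, adjusted p 0.0614) were lower without passing the test. Of 10 measured OAS genes and RNase L 4 fell and none rose, with a median difference of -1.06, against 1.35% of all genes called lower. Array probes can hybridise to near-identical copies, so values of members of the Oas1, Trim30, p200 and Ccl2 clusters may hold signal of a neighbour in the cluster.

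The p200 family, DNA-binding proteins encoded side by side on chromosome 1, had the most negative median difference of all lists (-1.33). Of 8 measured members 4 fell, against 1.35% of all genes, all of them in all 6 fits that left out 1 array. Ifi213 had -0.07, -0.12 and 0.04 in IFNAR-/- mice, against 2.14, 3.52 and 2.70 in wildtype mice (difference -2.84 ± 0.27, adjusted p 0.000506). Ifi209 had -0.48, -0.18 and -0.65 in IFNAR-/- mice, against 2.73, 3.74 and 3.07 in wildtype mice (difference -3.61 ± 0.38, adjusted p 0.000595). Ifi204 had -1.13, -0.74 and -1.70 in IFNAR-/- mice, against 1.33, 1.88 and 0.65 in wildtype mice (difference -2.48 ± 0.36, adjusted p 0.00471). In these 3 genes every IFNAR-/- array was more than 1 log2 unit below every wildtype array. Mndal fell as well (difference -1.69 ± 0.27, adjusted p 0.00837). Aim2, a sensor of cytosolic DNA, had 0.07, -0.03 and -0.37 in IFNAR-/- mice, against 0.89, 0.42 and 0.76 in wildtype mice and was not called (difference -0.80 ± 0.28, adjusted p 0.188). Ifi202b, chosen after its values were seen, ran against the rest of the family through 1 wildtype array. It had -1.09, -1.14 and -1.68 in IFNAR-/- mice, against 0.04, 0.63 and -5.37 in wildtype mice (difference 0.26 ± 1.16, adjusted p 0.976). Wildtype mouse 3 was 3.69 log2 units below the lowest of the other 11 arrays.

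A few TRIM and Schlafen genes fell. Trim30d had -0.47, -0.76 and -0.37 in IFNAR-/- mice, against 3.50, 3.13 and 2.74 in wildtype mice (difference -3.66 ± 0.36, adjusted p 0.000506). Trim30a, a negative regulator of Toll-like receptor signalling, had -0.05, -0.44 and 0.18 in IFNAR-/- mice, against 1.65, 1.55 and 1.27 in wildtype mice (difference -1.595 ± 0.15, adjusted p 0.000506). Slfn8 had -0.52, -0.90 and -1.28 in IFNAR-/- mice, against 1.62, 1.97 and 1.23 in wildtype mice (difference -2.502 ± 0.26, adjusted p 0.000638). All 3 were low in every IFNAR-/- mouse and were called whichever array was left out. Of 13 measured Trim genes 2 fell, and of 9 Schlafen genes 2 fell, with none called higher in either list. Of all genes 1.35% were called lower. With 1 array left out the Trim count lay between 2 and 4, highest without wildtype mouse 2, and the Schlafen count between 1 and 3, highest without wildtype mouse 3. Slfn5 fell by 1.35 on the log2 scale (adjusted p 0.0346, lost in 4 of 6 fits, adjusted p up to 0.145 without wildtype mouse 2). Trim12a had -0.21, -0.19 and -0.03 in IFNAR-/- mice, against 2.63, -0.18 and 1.91 in wildtype mice, where wildtype mouse 2 lay with the IFNAR-/- mice, and was not called (difference -1.595 ± 0.62, adjusted p 0.252).

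Promoter windows, 250 bases before to 50 after a RefSeq start (GRCm38.p6), are shown for the 5 genes that fell with the lowest adjusted p among those whose window holds the ISRE core, GAAA, any 2 bases and GAAA again, on either strand, with each match in capitals and overlapping matches joined. Each is read along the gene's own strand. Windows were found for 191 of the 246 genes that fell and 198 of the 235 that rose.
Oas1a, chr5:120907476-120907775, minus strand, first match 20 bases before the start: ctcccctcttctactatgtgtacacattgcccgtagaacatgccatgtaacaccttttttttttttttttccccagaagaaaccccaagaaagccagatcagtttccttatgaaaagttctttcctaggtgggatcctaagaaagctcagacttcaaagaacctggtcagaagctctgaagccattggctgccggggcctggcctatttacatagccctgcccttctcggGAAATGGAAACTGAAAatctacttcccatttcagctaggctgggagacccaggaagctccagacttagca
Ifi213, chr1:173599223-173599522, minus strand, match 73 bases before the start: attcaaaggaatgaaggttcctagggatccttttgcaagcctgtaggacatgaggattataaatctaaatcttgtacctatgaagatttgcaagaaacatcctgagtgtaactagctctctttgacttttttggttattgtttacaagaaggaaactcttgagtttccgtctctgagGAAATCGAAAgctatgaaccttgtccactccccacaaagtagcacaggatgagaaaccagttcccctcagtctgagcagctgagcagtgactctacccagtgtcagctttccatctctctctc
Trim30a, chr7:104446076-104446375, minus strand, match just after the start: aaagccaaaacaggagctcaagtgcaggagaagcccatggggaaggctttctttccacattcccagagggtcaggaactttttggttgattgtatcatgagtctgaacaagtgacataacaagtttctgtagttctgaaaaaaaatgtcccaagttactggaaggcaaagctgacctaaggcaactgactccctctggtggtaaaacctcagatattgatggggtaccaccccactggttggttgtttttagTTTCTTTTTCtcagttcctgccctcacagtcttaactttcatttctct
Trim30d, chr7:104507800-104508099, minus strand, match 41 bases before the start: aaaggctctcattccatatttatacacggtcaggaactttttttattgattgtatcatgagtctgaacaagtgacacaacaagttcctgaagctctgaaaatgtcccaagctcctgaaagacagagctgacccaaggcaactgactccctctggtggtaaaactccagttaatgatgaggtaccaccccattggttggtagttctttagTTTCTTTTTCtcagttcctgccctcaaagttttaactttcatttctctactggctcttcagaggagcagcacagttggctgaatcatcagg
Oas3, chr5:120777610-120777909, minus strand, match 75 bases before the start: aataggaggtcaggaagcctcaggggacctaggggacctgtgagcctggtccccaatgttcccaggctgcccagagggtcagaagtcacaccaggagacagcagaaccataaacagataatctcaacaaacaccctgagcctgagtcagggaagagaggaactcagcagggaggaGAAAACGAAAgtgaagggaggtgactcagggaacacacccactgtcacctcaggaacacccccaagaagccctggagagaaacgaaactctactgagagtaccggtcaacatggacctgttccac

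The ISRE core was in the window of 19 of the 191 genes that fell (9.95%), of 7 of the 198 that rose (3.54%) and of 524 of all 14452 measured genes with a window (3.63%). Among the interferon lists it was in the windows of 13 of 25 members that fell (52.0%) and of 21 of 57 members that were not called (36.8%). These 13 are among the 19 genes that fell with the core, so most of the 19 came from the interferon lists. The core of the gamma-activated site, TTCNNNGAA, which STAT dimers bind, was in 7.85% of the windows of genes that fell, 5.05% of those that rose and 8.57% of all. The 2 Trim30 windows carry the same 10 letters in capitals. A match is a run of letters and no measurement of binding, and a window without one says nothing of the factor.

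The sensors of foreign nucleic acid that passed the test were lower as well. Sting1, the adaptor of cytosolic DNA sensing, had -1.12, -1.003 and -1.10 in IFNAR-/- mice, against 0.42, 0.49 and -0.03 in wildtype mice (difference -1.37 ± 0.15, adjusted p 0.000913). Zbp1, which senses Z-form nucleic acid, had -1.05, -1.46 and -0.56 in IFNAR-/- mice, against 1.24, 2.05 and 0.69 in wildtype mice (difference -2.35 ± 0.33, adjusted p 0.00446). Eif2ak2, the double-stranded RNA kinase PKR, had -0.17, -0.40 and -0.04 in IFNAR-/- mice, against 1.15, 1.67 and 0.98 in wildtype mice (difference -1.47 ± 0.21, adjusted p 0.00446). For all 3 the IFNAR-/- mice lay below every wildtype mouse, and Sting1 varied least among the IFNAR-/- mice. Dhx58 (difference -1.17 ± 0.19, adjusted p 0.00791) and Ddx58, the RNA sensor RIG-I (difference -0.72 ± 0.14, adjusted p 0.0205, lost in 5 of 6 fits, adjusted p up to 0.0883 without IFNAR-/- mouse 1), fell too, which made 5 of 20 measured sensors and adaptors with none higher. Mavs, the adaptor of RIG-I, had 1.22, 1.30 and 1.12 in IFNAR-/- mice, against 0.25, -0.03 and 0.86 in wildtype mice and was not called (difference 0.85 ± 0.29, adjusted p 0.184).

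**Figure D1:**
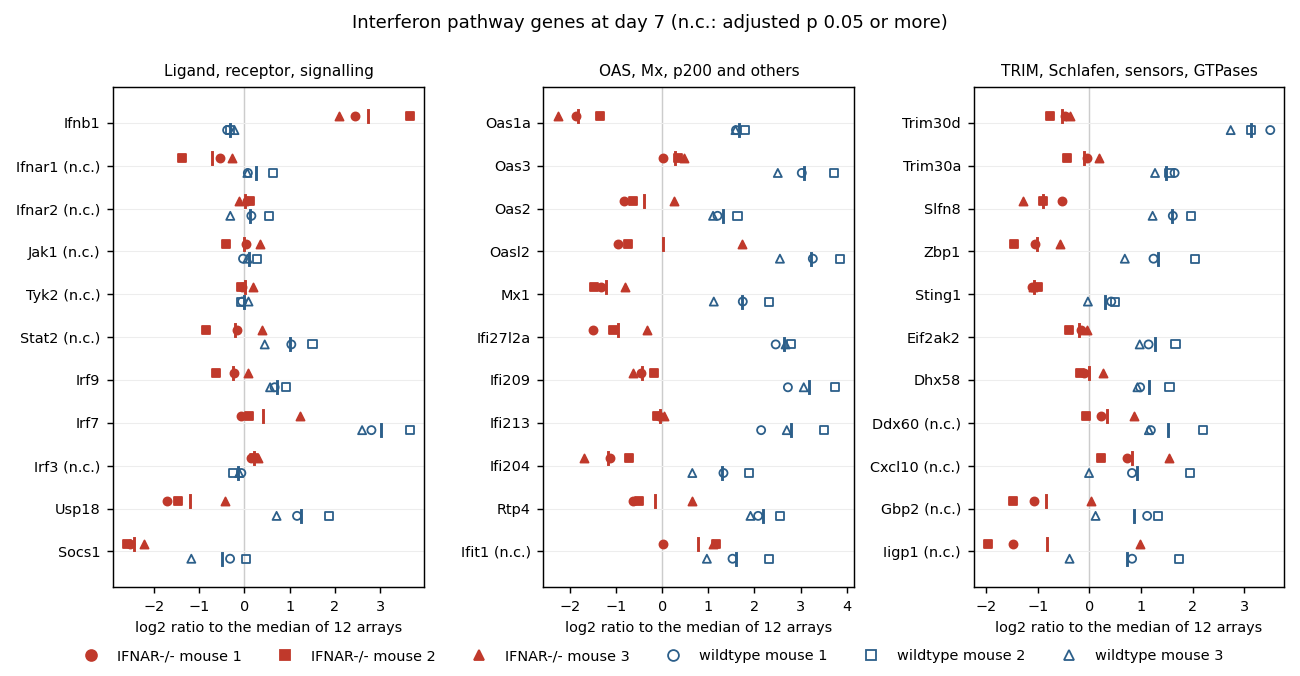
Log2 ratios of interferon pathway genes on the 6 day 7 arrays, with filled red symbols for IFNAR-/- mice above open blue symbols for wildtype mice, a symbol shape per mouse number and a bar at each group's mean. Ifnb1 was high in all 3 IFNAR-/- mice, the OAS, Mx, p200 and Trim30 genes were low in them, and IFNAR-/- mouse 3 (triangle) lay nearest the wildtype mice for Oasl2 (1.73), Irf7 (1.23) and Iigp1 (0.99).

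The guanylate-binding and immunity-related GTPases, which attack vacuoles of microbes and are induced by interferon gamma more than by type I interferon, held no gene that passed the test. None of 11 measured members was called by limma, 4 had an unadjusted p under 0.05, 9 lay below 0, and the median difference was -0.70. Gbp2 had -1.07, -1.48 and 0.03 in IFNAR-/- mice, against 1.12, 1.33 and 0.12 in wildtype mice (difference -1.70 ± 0.47, adjusted p 0.0943). Iigp1 had -1.47, -1.97 and 0.99 in IFNAR-/- mice, against 0.83, 1.74 and -0.38 in wildtype mice (difference -1.55 ± 0.81, adjusted p 0.474). IFNAR-/- mouse 3 lay among the wildtype mice for Iigp1 and close to wildtype mouse 3 for Gbp2. Without IFNAR-/- mouse 3 the median difference of the list was -1.26 and 1 member was called lower. Gbp2b was listed far below its median in wildtype mouse 3 alone, with -0.27, -0.69 and 1.11 in IFNAR-/- mice, against 0.43, 0.71 and -4.93 in wildtype mice. This gene, Ccn3 (0.42, 0.44 and 0.89 in IFNAR-/- mice, against -0.56, -2.22 and -6.05 in wildtype mice) and Hal (-0.81, -0.53 and -1.59 in IFNAR-/- mice, against 0.68, 1.04 and -5.17 in wildtype mice) were chosen after their values were seen. With Ifi202b they are the 4 genes for which wildtype mouse 3 lay at least 2.5 log2 units below all other 11 arrays.

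IFNAR-/- mice differed among themselves in how far interferon genes were reduced. Of the 48 effectors, 15 in IFNAR-/- mouse 3 were at or above the lowest wildtype array, against 3 in mouse 1 and 6 in mouse 2. Of the 11 GTPases 10 were so in mouse 3, against 3 in mouse 1 and 2 in mouse 2. Of the 10 genes of the OAS list only 1 was so in mouse 3, against 2 in each of the others, and of the 8 p200 genes 2 in mouse 3 against 1 in each. Ifit2 (1.68), Cmpk2 (1.48) and Ifit1bl1 (2.24) were higher in mouse 3 than in the other IFNAR-/- mice, whose values lay between -0.22 and 0.18 (Ifit2 and Cmpk2 were chosen after their values were seen). Of these 3 genes only Ifit2 passed the test (difference -2.35 ± 0.52, adjusted p 0.0387, lost in 4 of 6 fits). Ido1, an interferon-induced enzyme of tryptophan breakdown, had 1.39, 1.16 and 4.90 in IFNAR-/- mice, against 0.36, -0.05 and -0.45 in wildtype mice (difference 2.53 ± 0.81, adjusted p 0.145). IFNAR-/- mouse 3 is the array with high markers of other lung cells and neutrophils described above, and their part in these values was not tested.

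Ifit1 and Cxcl10 are interferon-induced genes that did not pass the test. Ifit1, an RNA-binding effector, had 0.02, 1.17 and 1.10 in IFNAR-/- mice, against 1.52, 2.32 and 0.97 in wildtype mice, with 2 IFNAR-/- mice above the lowest wildtype mouse (difference -0.84 ± 0.44, adjusted p 0.474). Cxcl10, a chemokine for activated T cells, had 0.73, 0.23 and 1.55 in IFNAR-/- mice, against 0.83, 1.94 and -0.01 in wildtype mice (difference -0.09 ± 0.45, adjusted p 0.982). Both overlapped between the genotypes at day 7. Isg15 was not analysed here.

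**Figure D2:**
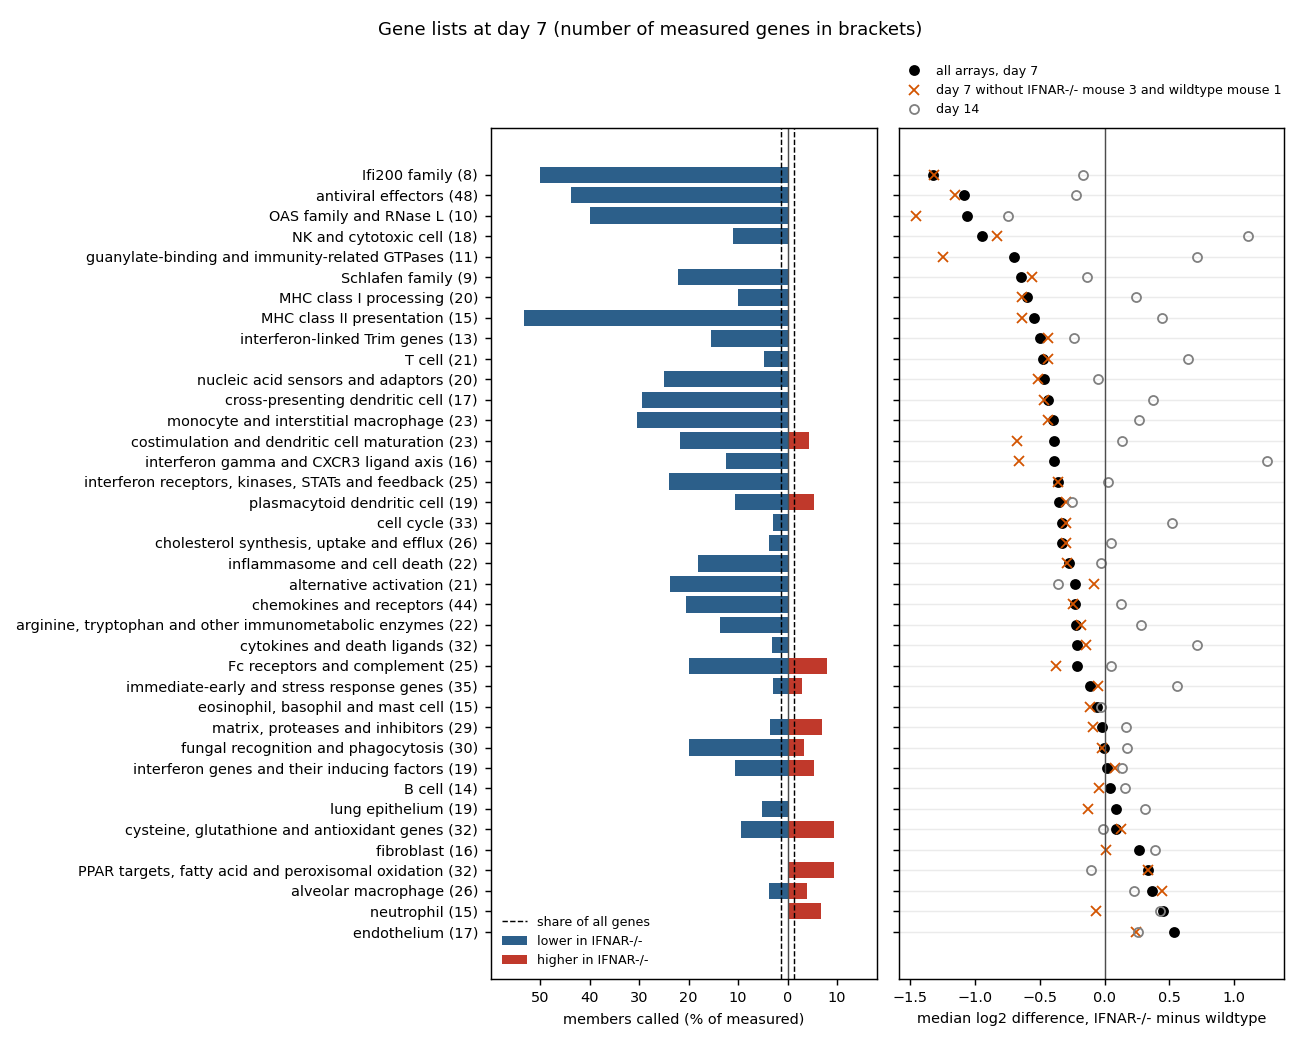
Gene lists at day 7, sorted by median difference. The left panel gives the share of each list's measured members called lower (blue, to the left) or higher (red, to the right) in IFNAR-/- mice, with dashed lines at the shares of all genes (1.35% and 1.29%); the right panel gives the median log2 difference at day 7, without both arrays rich in other lung cell markers, and at day 14. The p200 family had the lowest median (-1.33) and MHC class II the highest share called.

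Of the 16 genes of the interferon gamma axis 14 lay below 0 at day 7 and 2 were called lower, against 1.35% of all genes. Ifng had -0.65, -0.88 and -0.27 in IFNAR-/- mice, against 1.15, 2.04 and -0.07 in wildtype mice (difference -1.64 ± 0.54, adjusted p 0.156). Cxcl9, a chemokine that interferon gamma induces, had -1.34, -0.73 and -0.59 in IFNAR-/- mice, against 1.91, 2.41 and 0.94 in wildtype mice (difference -2.64 ± 0.52, adjusted p 0.0236, lost in 4 of 6 fits, adjusted p up to 0.0987 without wildtype mouse 2). Ifng was lowest in the IFNAR-/- mice, and wildtype mouse 3 (-0.069) lay close to IFNAR-/- mouse 3 (-0.27). Of 16 measured genes of this axis 2 fell, Stat4 and Cxcl9, a count that lay between 1 and 4 with 1 array left out, lowest in 3 of the 6 fits, without IFNAR-/- mouse 1 or 2 or wildtype mouse 2, and highest without wildtype mouse 3. Among markers of the cells that make interferon gamma, all 18 measured NK and cytotoxic markers and 19 of 21 T cell markers lay below 0, against 50.3% of all genes. The mean linear ratio over the NK and cytotoxic markers was 0.667 to 0.775 in IFNAR-/- arrays, against 1.13 to 1.95 in wildtype arrays, and that of the T cell markers 0.735 to 0.867 against 1.01 to 1.57. Of these markers Il2rb, a chain of the IL-2 and IL-15 receptors (difference -0.98 ± 0.17, adjusted p 0.0116), Klrk1, the activating receptor NKG2D (difference -2.30 ± 0.45, adjusted p 0.0212, lost in 4 of 6 fits, adjusted p up to 0.078 without IFNAR-/- mouse 2), and Icos (difference -1.45 ± 0.29, adjusted p 0.0235, lost in 5 of 6 fits, adjusted p up to 0.0873 without IFNAR-/- mouse 1) fell, and the count of T cell markers lay between 0 and 6 with 1 array left out, lowest in 5 of the 6 fits, without IFNAR-/- mouse 1, 2 or 3 or wildtype mouse 1 or 2, and highest without wildtype mouse 3. Gzmb, a granule protease, had -1.56, -1.59 and -0.80 in IFNAR-/- mice, against 2.12, 0.71 and 0.52 in wildtype mice (difference -2.44 ± 0.58, adjusted p 0.0503). The labels allow a few percent of lymphocytes in the sorted pool, a ratio does not show whether a marker is near 0 in level, and their part in the result was not tested.

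Among the chemokine genes that fell were the Ccr2 ligands Ccl2, Ccl7 and Ccl12. Ccl2 had -2.64, -2.60 and -3.10 in IFNAR-/- mice, against 0.38, -0.09 and -1.24 in wildtype mice (difference -2.46 ± 0.34, adjusted p 0.00433). Ccl7 had -3.42, -3.20 and -3.45 in IFNAR-/- mice, against 0.86, 0.50 and -1.57 in wildtype mice (difference -3.28 ± 0.55, adjusted p 0.0104). Ccl12 had -2.78, -3.18 and -3.20 in IFNAR-/- mice, against 0.34, 1.08 and -1.40 in wildtype mice (difference -3.06 ± 0.56, adjusted p 0.0165, lost in 4 of 6 fits, adjusted p up to 0.0638 without wildtype mouse 1). These 3 ligands were low in all 3 IFNAR-/- mice, and wildtype mouse 3 was the lowest of the wildtype mice for each. Ccr1, a receptor for inflammatory chemokines on myeloid cells, had -1.15, -1.08 and -1.38 in IFNAR-/- mice, against 0.07, 0.18 and 0.15 in wildtype mice (difference -1.33 ± 0.17, adjusted p 0.00221). Ccr7, which leads dendritic cells to lymph nodes, had -0.63, -0.61 and -0.51 in IFNAR-/- mice, against 0.70, 0.77 and 0.64 in wildtype mice (difference -1.29 ± 0.20, adjusted p 0.00667). Both receptors varied little within either genotype and were called in all 6 fits that left out 1 array. Ccl24 fell by 1.90 on the log2 scale (adjusted p 0.0129, lost in 1 of 6 fits, adjusted p up to 0.0537 without IFNAR-/- mouse 2), and Cx3cr1, the fractalkine receptor, by 0.63 (adjusted p 0.0394, lost in 4 of 6 fits, adjusted p up to 0.159 without wildtype mouse 2). In all 9 of 44 measured chemokines and receptors fell and none rose, against 1.35% of all genes called lower. The count lay between 4 and 9 with 1 array left out, lowest without IFNAR-/- mouse 2 and highest without wildtype mouse 3. It was 4 without both IFNAR-/- mouse 3 and wildtype mouse 1. Ccl8 (difference -2.12 ± 0.53, adjusted p 0.0625) and Cxcr6 (difference -1.56 ± 0.38, adjusted p 0.0614) were lower without passing the test.

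RNA of several genes of antigen presentation through MHC class II was lower in IFNAR-/- mice. H2-Aa had -0.82, -0.85 and -0.90 in IFNAR-/- mice, against 0.08, 0.55 and -0.09 in wildtype mice (difference -1.03 ± 0.15, adjusted p 0.00452). H2-Ab1 had -0.72, -0.77 and -0.58 in IFNAR-/- mice, against 0.22, 0.64 and -0.03 in wildtype mice (difference -0.97 ± 0.15, adjusted p 0.00745). H2-Eb1, the next measured gene along chromosome 17, had -0.40, -0.42 and -0.31 in IFNAR-/- mice, against 0.06, 0.46 and -0.0029 in wildtype mice (difference -0.55 ± 0.12, adjusted p 0.0387, lost in 5 of 6 fits, adjusted p up to 0.129 without IFNAR-/- mouse 1). The 3 neighbours thus fell together, H2-Eb1 by less. Lgmn, a protease that cuts antigens and the invariant chain, had -1.04, -1.36 and -1.15 in IFNAR-/- mice, against 0.20, 0.61 and 0.22 in wildtype mice (difference -1.53 ± 0.25, adjusted p 0.00851). Cd74, the invariant chain, fell by 0.41 on the log2 scale (adjusted p 0.0347, lost in 5 of 6 fits, adjusted p up to 0.163 without wildtype mouse 2), and H2-DMa, which helps load peptides, by 0.75 (adjusted p 0.0215, lost in 4 of 6 fits, adjusted p up to 0.0887 without wildtype mouse 2). Ciita, the master regulator of these genes, had -0.59, -0.91 and -0.17 in IFNAR-/- mice, against 0.08, 0.44 and -0.14 in wildtype mice and was not called (difference -0.68 ± 0.22, adjusted p 0.141). Of 15 measured genes 8 fell and none rose, against 1.35% of all genes called lower. The count lay between 3 and 7 with 1 array left out. It was lowest in 4 of the 6 fits, without IFNAR-/- mouse 1 or 2 or wildtype mouse 1 or 2, and highest without wildtype mouse 3. It was 2 without both IFNAR-/- mouse 3 and wildtype mouse 1. Of 20 MHC class I genes 2 fell, a count that lay between 1 and 6 with 1 array left out, lowest in 4 of the 6 fits, without IFNAR-/- mouse 1 or 2 or wildtype mouse 1 or 2, and highest without wildtype mouse 3. H2-M3, a presenter of formylated peptides, had -0.95, -0.81 and -1.29 in IFNAR-/- mice, against 0.11, 0.53 and 0.38 in wildtype mice (difference -1.36 ± 0.21, adjusted p 0.00698). Psme1, a proteasome activator, fell by 0.62 on the log2 scale (adjusted p 0.0478, lost in 5 of 6 fits, adjusted p up to 0.201 without wildtype mouse 2).

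Costimulatory genes changed in both directions. Cd86, a ligand of Cd28 on T cells, had -1.23, -1.58 and -1.21 in IFNAR-/- mice, against 0.21, 0.85 and -0.41 in wildtype mice (difference -1.56 ± 0.27, adjusted p 0.0126, lost in 1 of 6 fits, adjusted p up to 0.055 without IFNAR-/- mouse 2). Cd40, the receptor for help from T cells, had -2.37, -2.19 and -1.93 in IFNAR-/- mice, against -0.12, 0.80 and -1.09 in wildtype mice (difference -2.02 ± 0.39, adjusted p 0.0211, lost in 3 of 6 fits, adjusted p up to 0.0842 without IFNAR-/- mouse 1). Pdcd1lg2, a ligand of the inhibitory receptor PD-1, had -3.12, -3.53 and -2.86 in IFNAR-/- mice, against -1.69, 0.27 and -0.49 in wildtype mice (difference -2.53 ± 0.44, adjusted p 0.0127, lost in 1 of 6 fits, adjusted p up to 0.055 without IFNAR-/- mouse 2). These 3 were low in all IFNAR-/- mice, and wildtype mouse 3 or 1 came nearest to them. Icosl, the ligand of Icos, rose, with 0.78, 0.64 and 0.62 in IFNAR-/- mice, against -0.0036, 0.02 and 0.04 in wildtype mice (difference 0.66 ± 0.12, adjusted p 0.0152, lost in 3 of 6 fits, adjusted p up to 0.0717 without IFNAR-/- mouse 1). Of 23 measured genes of this list 5 fell and 1 rose, against 1.35% and 1.29% of all genes. The count that fell lay between 1 and 6 with 1 array left out, lowest without IFNAR-/- mouse 2 and highest without IFNAR-/- mouse 3, and it was 2 without both IFNAR-/- mouse 3 and wildtype mouse 1.

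**Figure D3:**
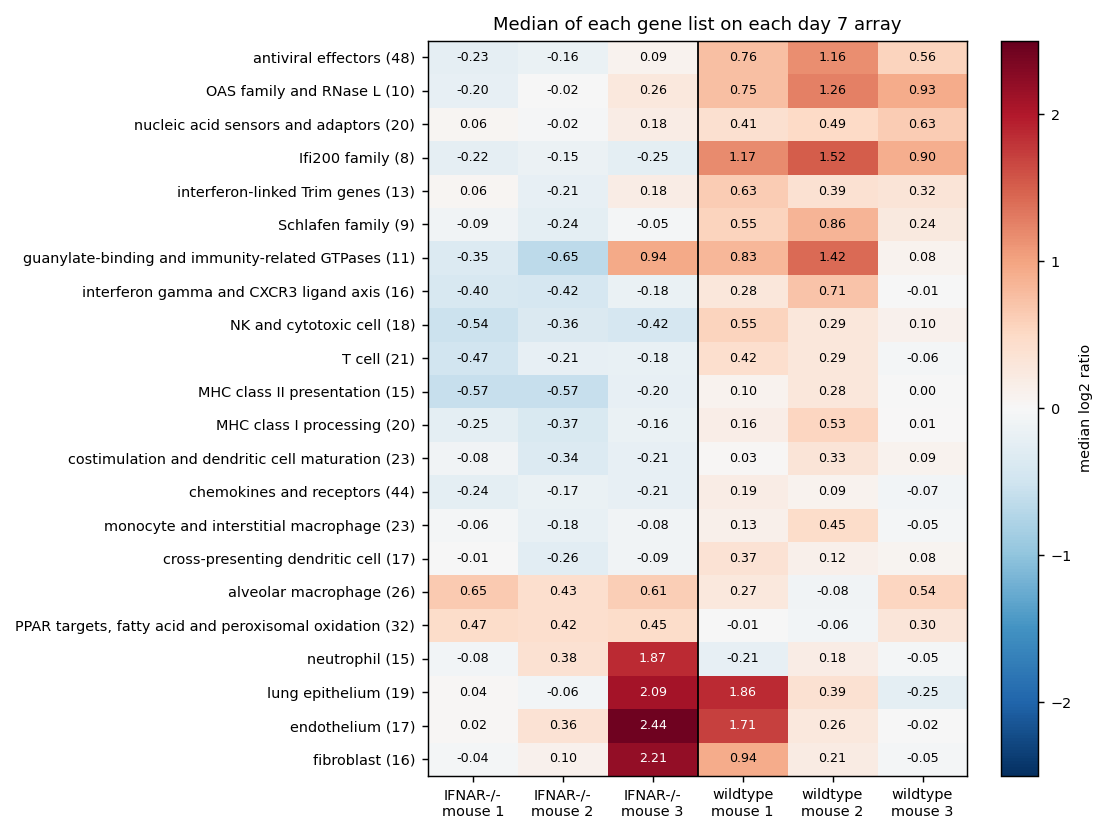
Median log2 ratio of each gene list on each of the 6 day 7 arrays, IFNAR-/- arrays left of the black line and wildtype arrays right of it. The OAS and p200 lists were lower on each IFNAR-/- array than on each wildtype array, whereas epithelial, endothelial and fibroblast markers were highest on IFNAR-/- mouse 3 (2.09, 2.44 and 2.21) and next on wildtype mouse 1.

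Receptors for antibody and complement split by member. C5ar1, the receptor for the complement fragment C5a, rose, with 2.78, 2.60 and 2.95 in IFNAR-/- mice, against 0.05, 0.64 and 0.14 in wildtype mice (difference 2.51 ± 0.21, adjusted p 0.000193). C3ar1, the receptor for C3a, fell, with -1.52, -2.21 and -2.31 in IFNAR-/- mice, against 0.65, 1.43 and -0.16 in wildtype mice (difference -2.65 ± 0.43, adjusted p 0.00808). The 2 receptors of complement fragments thus moved in opposite directions with no overlap between genotypes in either. Fcgr2b, the inhibitory receptor for IgG, had -1.37, -1.46 and -1.36 in IFNAR-/- mice, against -0.39, -0.15 and -0.47 in wildtype mice (difference -1.06 ± 0.10, adjusted p 0.000506). Fcgr1, the high-affinity receptor for IgG, had -0.80, -0.99 and -0.99 in IFNAR-/- mice, against 0.67, 1.54 and 0.47 in wildtype mice (difference -1.82 ± 0.29, adjusted p 0.00751). Both Fc receptors fell in each of the 6 fits that left out 1 array. Fcgrt, which recycles IgG and was chosen after its values were seen, rose by 1.51 ± 0.35 (adjusted p 0.0457, lost in 5 of 6 fits). The complement subunits C1qb (difference -1.63 ± 0.32, adjusted p 0.0219, lost in 4 of 6 fits, adjusted p up to 0.0735 without IFNAR-/- mouse 3) and C1qc (difference -2.13 ± 0.45, adjusted p 0.0322, lost in 5 of 6 fits, adjusted p up to 0.102 without IFNAR-/- mouse 2) fell, and C1qa was lower without passing the test (difference -1.79 ± 0.49, adjusted p 0.0888). Of 25 measured genes 5 fell and 2 rose, against 1.35% and 1.29% of all genes. The count that fell lay between 3 and 7 with 1 array left out, lowest in 4 of the 6 fits, without IFNAR-/- mouse 2 or 3 or wildtype mouse 1 or 2, and highest without wildtype mouse 3.

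Receptors that recognise fungi were among the genes that fell. Clec7a, the beta-glucan receptor dectin-1, had -0.67, -0.75 and -0.66 in IFNAR-/- mice, against 0.19, 0.23 and 0.04 in wildtype mice (difference -0.85 ± 0.09, adjusted p 0.000592). Clec5a, a C-type lectin receptor of myeloid cells, had -1.34, -1.69 and -1.29 in IFNAR-/- mice, against 0.10, 0.69 and -0.10 in wildtype mice (difference -1.67 ± 0.25, adjusted p 0.00587). For both genes every IFNAR-/- mouse was below every wildtype mouse with no overlap, and both were called in all 6 fits. Tlr1, a partner of Tlr2, had -1.34, -1.25 and -1.33 in IFNAR-/- mice, against -0.25, 1.29 and -0.06 in wildtype mice (difference -1.63 ± 0.32, adjusted p 0.0223, lost in 3 of 6 fits, adjusted p up to 0.0798 without IFNAR-/- mouse 1). Clec1b, a receptor for podoplanin, had -1.31, -1.21 and -1.61 in IFNAR-/- mice, against 4.12, 3.90 and 0.13 in wildtype mice (difference -4.10 ± 0.92, adjusted p 0.0405, lost in 5 of 6 fits, adjusted p up to 0.164 without wildtype mouse 2). It was the largest fall of all called genes, and wildtype mouse 3 lay near the IFNAR-/- mice. Cd209b, a lectin of the DC-SIGN family chosen after its values were seen, rose by 0.83 ± 0.19 (adjusted p 0.048, lost in 5 of 6 fits). Marco, a scavenger receptor of alveolar macrophages, had 2.21, 2.06 and 2.20 in IFNAR-/- mice, against -0.95, 0.13 and 1.10 in wildtype mice and was not called (difference 2.06 ± 0.70, adjusted p 0.172). In all 6 of 30 measured genes fell and 1 rose, against 1.35% and 1.29% of all genes. The median difference of the list was -0.002 against -0.0011 over all genes. The count that fell lay between 2 and 5 with 1 array left out, lowest in 3 of the 6 fits, without IFNAR-/- mouse 1, 2 or 3, and highest without wildtype mouse 3.

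Some genes of inflammatory cell death and of amino acid use fell. Mlkl, the executioner of necroptosis, had -1.57, -1.29 and -1.37 in IFNAR-/- mice, against 0.70, 1.32 and 0.37 in wildtype mice (difference -2.20 ± 0.24, adjusted p 0.000908). Casp4, the non-canonical inflammasome caspase, had -0.53, -1.11 and -0.83 in IFNAR-/- mice, against 0.32, 1.75 and 1.03 in wildtype mice (difference -1.86 ± 0.32, adjusted p 0.0125, lost in 1 of 6 fits, adjusted p up to 0.0547 without IFNAR-/- mouse 2). Casp1 (difference -0.74 ± 0.15, adjusted p 0.0283, lost in 3 of 6 fits, adjusted p up to 0.106 without IFNAR-/- mouse 2) and Ripk3, the kinase that activates Mlkl (difference -0.87 ± 0.20, adjusted p 0.045, lost in 6 of 6 fits, adjusted p up to 0.147 without IFNAR-/- mouse 2), also fell, which made 4 of 22, against 1.35% of all genes. That count lay between 1 and 3 with 1 array left out, lowest without IFNAR-/- mouse 2 and highest in 3 of the 6 fits, without IFNAR-/- mouse 3 or wildtype mouse 1 or 3. Arg1, arginase, had -2.0, -2.61 and -3.67 in IFNAR-/- mice, against -0.58, -0.15 and -0.59 in wildtype mice (difference -2.32 ± 0.34, adjusted p 0.00471). Nos2, which uses the same substrate to make nitric oxide, had -2.34, -2.24 and -2.56 in IFNAR-/- mice, against 0.15, 1.67 and -1.59 in wildtype mice and was not called (difference -2.46 ± 0.73, adjusted p 0.118). Both arginine enzymes were low in all IFNAR-/- mice, and the wildtype mice were spread widely for Nos2. Kmo (difference -1.64 ± 0.21, adjusted p 0.0023) and Kynu (difference -1.56 ± 0.27, adjusted p 0.0125), enzymes of the kynurenine pathway of tryptophan breakdown, fell in all 6 fits that left out 1 array. Of the alternative activation genes 5 of 21 fell, Arg1, Pdcd1lg2, Ccl24, Tgm2 (lost in 5 of 6 fits, adjusted p up to 0.143 without wildtype mouse 2) and Msr1 (lost in 5 of 6 fits, adjusted p up to 0.178 without wildtype mouse 2), a count that lay between 1 and 5 with 1 array left out, lowest without IFNAR-/- mouse 2 and highest without wildtype mouse 3, whereas Cd163 (difference 1.05 ± 0.54, adjusted p 0.452) and Retnla (difference 1.23 ± 0.47, adjusted p 0.24) did not pass the test.

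Some markers of monocyte-derived cells and of dendritic cells fell beside these groups. Of 23 monocyte and interstitial macrophage markers 7 fell and none rose, and these were Fcgr1, Ms4a4c, Ms4a7, C1qb, Ms4a6c, C1qc and Cx3cr1, 2 genes without both IFNAR-/- mouse 3 and wildtype mouse 1. The count lay between 3 and 8 with 1 array left out, lowest in 3 of the 6 fits, without IFNAR-/- mouse 2 or 3 or wildtype mouse 2, and highest without wildtype mouse 3. The mean linear ratio over this list was 1.17 to 1.62 in IFNAR-/- arrays, against 1.09 to 1.79 in wildtype arrays, which overlap. Of 17 markers of cross-presenting dendritic cells 5 fell, a count that lay between 1 and 4 with 1 array left out, lowest without wildtype mouse 1 and highest in 2 of the 6 fits, without wildtype mouse 2 or 3, and the mean linear ratio was 0.799 to 1.06 in IFNAR-/- arrays, against 1.18 to 1.47 in wildtype arrays. Batf3, a transcription factor of these cells, had -1.64, -1.44 and -1.52 in IFNAR-/- mice, against -0.20, -0.88 and -0.10 in wildtype mice (difference -1.14 ± 0.21, adjusted p 0.0154, lost in 2 of 6 fits, adjusted p up to 0.069 without IFNAR-/- mouse 1). Itgae, the gene of CD103, had -0.14, -0.49 and -0.36 in IFNAR-/- mice, against 1.06, 0.53 and 0.68 in wildtype mice (difference -1.08 ± 0.20, adjusted p 0.019, lost in 3 of 6 fits, adjusted p up to 0.0741 without IFNAR-/- mouse 2). Flt3, the growth factor receptor of dendritic cells, fell by 0.75 on the log2 scale (adjusted p 0.0284, lost in 4 of 6 fits, adjusted p up to 0.117 without IFNAR-/- mouse 1). Irf8, which these cells need, had -0.37, -0.52 and -0.35 in IFNAR-/- mice, against 0.90, 1.05 and 0.24 in wildtype mice (difference -1.14 ± 0.25, adjusted p 0.0378, lost in 5 of 6 fits, adjusted p up to 0.158 without wildtype mouse 2). All 4 were low in every IFNAR-/- mouse. Markers of plasmacytoid dendritic cells, which make much interferon alpha, had a mean linear ratio of 0.891 to 1.06 in IFNAR-/- arrays, against 1.13 to 1.23 in wildtype arrays, with 2 of 19, Irf8 and Pacsin1 (difference -0.62 ± 0.14, adjusted p 0.0447, lost in 6 of 6 fits, adjusted p up to 0.178 without wildtype mouse 2), lower and 1, Ptprs (difference 0.87 ± 0.12, adjusted p 0.00435), higher. The count of 2 lay between 0 and 2 with 1 array left out, lowest in 5 of the 6 fits, without IFNAR-/- mouse 1, 2 or 3 or wildtype mouse 1 or 2, and highest without wildtype mouse 3.

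A run of the Ms4a cluster on chromosome 19 fell together. The 5 neighbouring measured genes Ms4a7, Ms4a4c, Ms4a4b, Ms4a6c and Gm8369 were all called lower. Ms4a4c had 0.07, -0.39 and 0.10 in IFNAR-/- mice, against 1.44, 2.82 and 1.37 in wildtype mice (difference -1.95 ± 0.32, adjusted p 0.00841). Ms4a7, a membrane protein of macrophages, had -1.17, -0.92 and -1.82 in IFNAR-/- mice, against 0.02, 0.45 and -0.32 in wildtype mice (difference -1.35 ± 0.23, adjusted p 0.0125). Ms4a4b, known from T cells, had -1.14, -1.25 and -0.43 in IFNAR-/- mice, against 0.69, 0.52 and 0.19 in wildtype mice (difference -1.40 ± 0.27, adjusted p 0.0197, lost in 4 of 6 fits, adjusted p up to 0.0813 without IFNAR-/- mouse 1). The groups did not overlap in any of the 5. Ms4a6c (difference -0.83 ± 0.17, adjusted p 0.0252, lost in 3 of 6 fits, adjusted p up to 0.0878 without wildtype mouse 2) and Gm8369 (difference -0.50 ± 0.12, adjusted p 0.0491, lost in 5 of 6 fits, adjusted p up to 0.181 without wildtype mouse 1) fell by less. Runs of at least 3 neighbouring measured genes called in 1 direction numbered 3 in all: the Ms4a genes, the MHC class II genes above, and a run of genes that rose on chromosome 11. The last held St6galnac2, BC018473 and St6galnac1, the outer genes being transferases that add sialic acid to O-linked sugars. St6galnac1 had 2.11, 2.16 and 1.77 in IFNAR-/- mice, against -0.50, -0.0017 and -0.13 in wildtype mice (difference 2.22 ± 0.16, adjusted p 7.41e-05). St6galnac2 had 1.28, 1.34 and 1.58 in IFNAR-/- mice, against -0.37, -0.25 and 0.06 in wildtype mice (difference 1.59 ± 0.16, adjusted p 0.000587). BC018473 had 2.28, 1.72 and 2.27 in IFNAR-/- mice, against -2.41, -0.56 and -0.52 in wildtype mice (difference 3.25 ± 0.49, adjusted p 0.00588). All 3 were called whichever array was left out.

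Among the genes that rose, Acaa1b, a peroxisomal thiolase of fatty acid oxidation, had the largest difference. It had 4.63, 4.76 and 5.10 in IFNAR-/- mice, against 0.10, -0.10 and 2.10 in wildtype mice (difference 4.13 ± 0.67, adjusted p 0.00853), with wildtype mouse 3 higher than the other wildtype mice. Ech1, which isomerises unsaturated fatty acids, had 1.15, 1.18 and 1.17 in IFNAR-/- mice, against 0.04, -0.22 and 0.45 in wildtype mice (difference 1.08 ± 0.16, adjusted p 0.00471). Angptl4, a lipase inhibitor and PPAR target, had 0.49, 0.66 and 1.02 in IFNAR-/- mice, against -0.40, -0.37 and 0.0018 in wildtype mice (difference 0.98 ± 0.19, adjusted p 0.021, lost in 4 of 6 fits, adjusted p up to 0.0858 without wildtype mouse 2). Each of the 3 was higher in every IFNAR-/- mouse. They were the 3 of 32 measured genes of PPAR targets and fatty acid oxidation that rose, none fell, and 19 of the 32 had no overlap upwards, with a median difference of 0.34. Over all genes 1.29% were called higher and 12.4% had no overlap upwards. The count that rose lay between 2 and 6 with 1 array left out, lowest in 4 of the 6 fits, without IFNAR-/- mouse 2 or 3 or wildtype mouse 1 or 2, and highest without wildtype mouse 3. Fabp4, a fatty acid carrier of alveolar macrophages, had 1.996, 1.01 and 1.13 in IFNAR-/- mice, against -1.08, -1.21 and 0.71 in wildtype mice and was not called (difference 1.91 ± 0.58, adjusted p 0.124). The mean linear ratio of the alveolar macrophage markers was 1.996 to 2.22 in IFNAR-/- arrays, against 0.950 to 1.52 in wildtype arrays. Their median log2 ratio was 0.65, 0.43 and 0.61 in IFNAR-/- mice, against 0.27, -0.08 and 0.54 in wildtype mice, which overlap. A mean of linear ratios gives most weight to the markers with the largest ratios. Of these 26 markers 7 lay below 0, 1, Cebpb, rose (difference 0.63 ± 0.15, adjusted p 0.0496, lost in 6 of 6 fits, adjusted p up to 0.155 without wildtype mouse 2) and 1, Bhlhe40, fell (difference -0.98 ± 0.18, adjusted p 0.0184, lost in 5 of 6 fits, adjusted p up to 0.0703 without wildtype mouse 1). Fabp1 (difference 2.64 ± 0.75, adjusted p 0.103) and Marco were higher without passing the test, and the part of this cell type in the result was not tested. Without both IFNAR-/- mouse 3 and wildtype mouse 1 none of the 32 genes was called.

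Other large rises came from varied functions. Adamtsl4, a secreted protein that binds fibrillin, had 2.78, 3.02 and 2.54 in IFNAR-/- mice, against 0.02, -0.01 and -0.23 in wildtype mice (difference 2.85 ± 0.16, adjusted p 2.06e-05). Fstl1, a secreted glycoprotein, had 3.28, 3.59 and 2.06 in IFNAR-/- mice, against 0.06, -0.28 and -0.08 in wildtype mice (difference 3.07 ± 0.44, adjusted p 0.00452). Spic, a transcription factor of iron-recycling macrophages, had 2.42, 2.15 and 1.91 in IFNAR-/- mice, against -0.17, 0.03 and 0.08 in wildtype mice (difference 2.18 ± 0.17, adjusted p 0.000139). The wildtype mice were all near their medians and the IFNAR-/- mice all far above them for these 3. Cdo1, which breaks down cysteine, had 3.35, 4.18 and 3.17 in IFNAR-/- mice, against 1.01, 1.68 and -0.40 in wildtype mice (difference 2.80 ± 0.43, adjusted p 0.00689). Kcnj15, a potassium channel, had 3.18, 2.40 and 2.45 in IFNAR-/- mice, against -0.14, 0.09 and -0.06 in wildtype mice (difference 2.71 ± 0.22, adjusted p 0.000142). Sult1a1, a sulfotransferase, had 1.93, 1.62 and 2.80 in IFNAR-/- mice, against 0.57, -0.25 and -0.37 in wildtype mice (difference 2.13 ± 0.30, adjusted p 0.00446). Their groups were also well apart, with a wider spread among the wildtype mice for Cdo1. Fam241b (difference 2.49 ± 0.15, adjusted p 2.06e-05), Lims2 (difference 2.14 ± 0.31, adjusted p 0.00446) and Tmem154 (difference 2.56 ± 0.42, adjusted p 0.00853) rose and were called in all 6 fits.

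**Figure D4:**
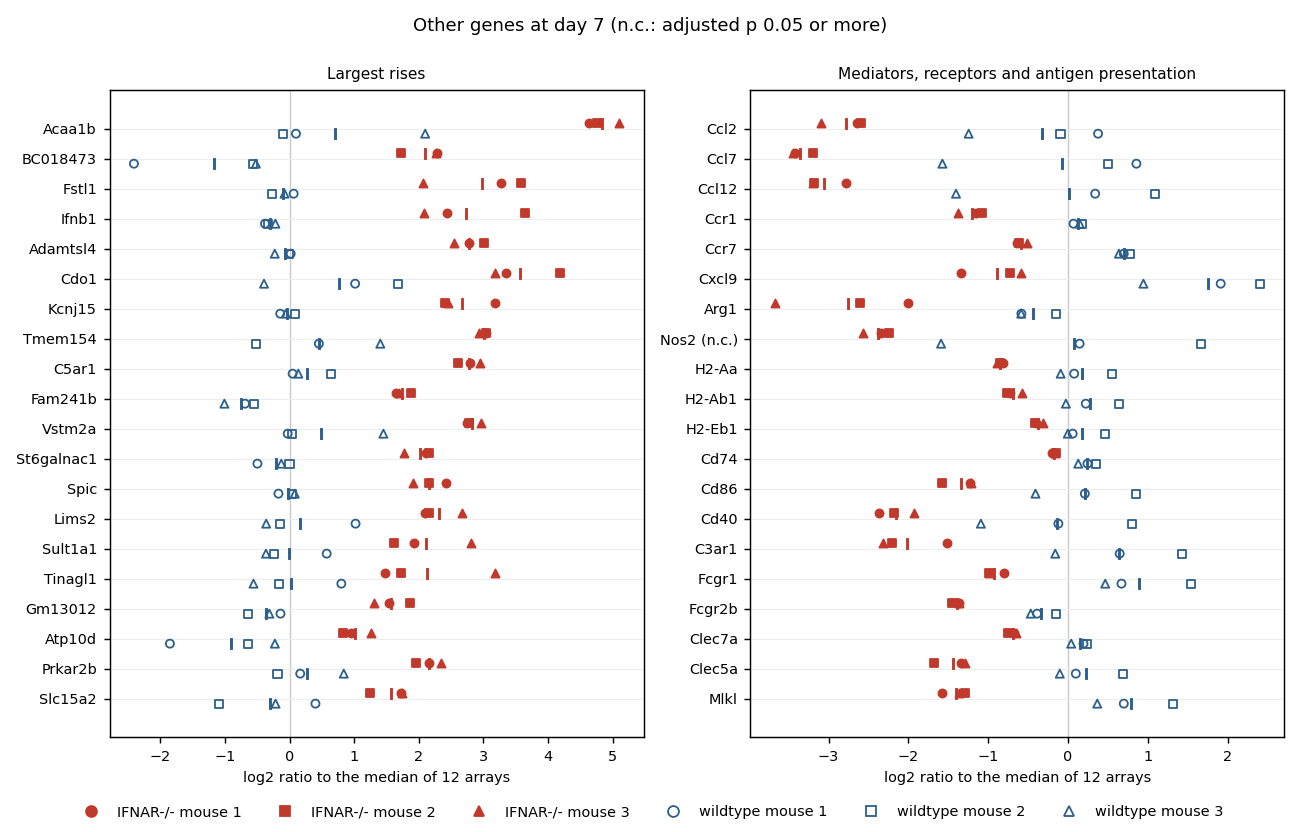
Log2 ratios on the 6 day 7 arrays for the 20 largest rises (left) and for mediators, receptors and antigen presentation genes (right), drawn with filled red symbols for IFNAR-/- mice above open blue symbols for wildtype mice and a bar at each group's mean. Acaa1b lay between 4.63 and 5.10 in IFNAR-/- mice, and Ccl7 between -3.45 and -3.20.

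Further large falls stood outside the interferon lists. Mtmr7, a lipid phosphatase, had -1.10, -1.14 and -1.53 in IFNAR-/- mice, against 2.18, 2.38 and 2.68 in wildtype mice (difference -3.67 ± 0.41, adjusted p 0.000913). Slamf7, a receptor of the SLAM family on immune cells, had -1.40, -1.61 and -1.47 in IFNAR-/- mice, against 1.37, 2.25 and 1.14 in wildtype mice (difference -3.08 ± 0.43, adjusted p 0.00446). Slamf8, a myeloid member of that family, had -2.27, -2.30 and -2.99 in IFNAR-/- mice, against 0.27, 0.94 and -0.72 in wildtype mice (difference -2.68 ± 0.38, adjusted p 0.00452). In each the groups were more than 1 log2 unit apart at their nearest arrays. Flt1, a receptor for vascular growth factors, had -2.26, -2.05 and -0.72 in IFNAR-/- mice, against 2.13, 1.14 and 0.54 in wildtype mice (difference -2.95 ± 0.46, adjusted p 0.00716). Asb11, a ubiquitin ligase component, had -2.40, -2.05 and -2.29 in IFNAR-/- mice, against 0.69, 1.33 and 0.03 in wildtype mice (difference -2.94 ± 0.29, adjusted p 0.000506). AA467197 had -2.59, -2.35 and -3.79 in IFNAR-/- mice, against 0.11, -0.29 and -0.47 in wildtype mice (difference -2.69 ± 0.31, adjusted p 0.00101). These were called whichever array was left out.

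Genes near Ifnar1 were looked at because flanking sequence of an altered gene can differ from wildtype. Of the 100 measured neighbours, 50 on each side along chromosome 16, 4 were called, Mrap, Slc5a3, Mrps6 and Kcnj15, and all of them were higher in IFNAR-/- mice, at 12 places before and 11, 12 and 41 places after Ifnar1. Mrap, an accessory protein of melanocortin receptors, had 0.98, 1.09 and 0.34 in IFNAR-/- mice, against -0.40, -0.47 and -0.22 in wildtype mice (difference 1.17 ± 0.19, adjusted p 0.00858), and its 2 probe sets differed in direction. Slc5a3, an inositol transporter (difference 0.89 ± 0.17, adjusted p 0.0212, lost in 4 of 6 fits, adjusted p up to 0.0858 without wildtype mouse 2), and the mitochondrial ribosome gene Mrps6 (difference 0.92 ± 0.20, adjusted p 0.0347, lost in 5 of 6 fits, adjusted p up to 0.143 without wildtype mouse 2) are themselves neighbours. Mx1 and Mx2, both lower, lie 56 and 58 places after Ifnar1. The share of 4 in 100 is to be read against 2.64% of all genes.

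Several lists held few or no called genes, to be read against 2.64% of all genes. None of the B cell, eosinophil, endothelial or fibroblast markers was called by limma, with an unadjusted p under 0.05 for 1 B cell, 2 eosinophil, 0 endothelial and 0 fibroblast markers, and 1 of 19 epithelial markers was, Cdh1, which some dendritic cells and macrophages also express (difference -1.57 ± 0.34, adjusted p 0.0357, lost in 5 of 6 fits, adjusted p up to 0.124 without wildtype mouse 1). Of 15 neutrophil markers S100a8 rose (difference 1.81 ± 0.39, adjusted p 0.0341, lost in 4 of 6 fits, adjusted p up to 0.115 without wildtype mouse 1), and IFNAR-/- mouse 3 was the highest array. Cell cycle genes lay below 0 for 31 of 33 members with a median of -0.33, but only Cenpa, which marks centromeres, was called (difference -0.49 ± 0.11, adjusted p 0.041, lost in 6 of 6 fits, adjusted p up to 0.163 without wildtype mouse 2). Of 32 cytokine genes Hbegf alone fell (difference -2.29 ± 0.51, adjusted p 0.041, lost in 5 of 6 fits, adjusted p up to 0.141 without wildtype mouse 1). The glutathione and antioxidant list held more calls, as 3 of 32 fell and 3 rose (18.8% called). Its count that fell was 1 in each of the 6 fits that left out 1 array. Prdx2, a peroxidase, had -1.09, -0.85 and -1.03 in IFNAR-/- mice, against 0.19, 0.28 and 0.38 in wildtype mice (difference -1.27 ± 0.16, adjusted p 0.00276), and Gstp1, a glutathione transferase, rose by 0.72 ± 0.12 (adjusted p 0.0116, lost in 1 of 6 fits, adjusted p up to 0.0521 without IFNAR-/- mouse 2).

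The day 14 arrays come from other mice and so give a separate measurement of the same genotypes, though the tests of both days share the spread of all 12 arrays. IFNAR-/- day 14 mouse 2 stood apart, with an interquartile range of log2 ratios of 0.56, against 0.17 to 0.34 on the other arrays. At day 14, 917 genes (5.04%) were called, 599 lower (3.29%) and 318 higher (1.75%). With a control signal covariate described below 37 were called. Of the 246 genes that fell at day 7, 152 had a difference below 0 at day 14, 34 were called lower and 16 were called higher. Of the 235 that rose, 153 were above 0, 17 were called higher and 8 were called lower. The median difference of the 246 genes was -1.13 at day 7 and -0.19 at day 14, and that of the 235 genes was 0.86 at day 7 and 0.13 at day 14. The difference itself changed between the days for 451 of all genes (2.48%), among them 79 of the 246 and 69 of the 235, each of these towards the other sign. A selection at day 7 by its own test favours smaller values at day 14. It also favours a change between the days towards the other sign, since the day 7 difference is part of that change. The shares of the 246 and 235 genes are therefore not comparable with the share of all genes.

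Interferon genes differed in whether they were also called lower at day 14. Oas1a was lower at day 14 as well, with log2 ratios of -0.97, -1.003 and -1.47 in IFNAR-/- mice, against 0.61, 0.55 and 0.77 in wildtype mice (difference -1.79 ± 0.21, adjusted p 0.00201). Ifi27l2a had -0.97, -1.31 and -2.22 in IFNAR-/- mice, against 1.25, 0.25 and 0.29 in wildtype mice at day 14 (difference -2.10 ± 0.37, adjusted p 0.013). Slfn8 had -0.63, -1.06 and -0.52 in IFNAR-/- mice, against 0.69, 1.19 and 0.36 in wildtype mice (difference -1.48 ± 0.26, adjusted p 0.013). These 3 were called lower at both days, though the Oas1a difference also changed between the days (1.71, adjusted p under 0.05). Mx1 had -0.23, 0.50 and 0.05 in IFNAR-/- mice, against 0.35, -0.08 and -0.19 in wildtype mice at day 14, where the genotypes overlapped (difference 0.08 ± 0.30, adjusted p 0.922), and its change between the days was 3.02 ± 0.42 (adjusted p 0.00867). Ifi213 changed likewise, by 2.75 ± 0.38 (adjusted p 0.00867). The changes of Oas1a, Mx1 and Ifi213 were not called with the control signal covariate given in the next paragraph. Over the 48 effectors the median difference was -1.08 at day 7 and -0.22 at day 14.

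Some genes that fell at day 7 were higher in IFNAR-/- mice at day 14. Cd69, an activation marker of lymphocytes, had -0.25, 0.03 and -0.13 in IFNAR-/- mice, against 1.04, 1.42 and 0.79 in wildtype mice at day 7 (difference -1.20 ± 0.19, adjusted p 0.00751). At day 14 it had 0.44, 0.07 and -0.06 in IFNAR-/- mice, against -1.36, -1.61 and -1.09 in wildtype mice (difference 1.503 ± 0.19, adjusted p 0.00338), a change of 2.70 ± 0.27 (adjusted p 0.00266). Cxcl9 differed by 2.18 ± 0.52 at day 14 (adjusted p 0.0388), a change of 4.82 ± 0.74 (adjusted p 0.0115). Cx3cr1 1.65 ± 0.20, Stat4 2.56 ± 0.32, Clec5a 2.77 ± 0.35, Ms4a4b 3.31 ± 0.38, Lap3 1.53 ± 0.19 and Grasp 2.29 ± 0.26 changed in the same direction, each with an adjusted p under 0.05. Values of NK markers stood beside these: the mean linear ratio of the NK and cytotoxic list at day 14 was 1.20 to 2.77 in IFNAR-/- arrays, against 0.708 to 0.989 in wildtype arrays. Of the genes that rose at day 7, Adamtsl4 (-3.22 ± 0.23), C5ar1 (-2.54 ± 0.30), St6galnac1 (-1.82 ± 0.22), Ssh2 (-1.59 ± 0.18), Polr3gl (-1.48 ± 0.14), Zfp760 (-1.76 ± 0.17), Dcun1d3 (-1.53 ± 0.20) and Btbd1 (-1.05 ± 0.13) had the lowest p of the change. With the 5 prime over 3 prime control signal, the log2 ratio of probe sets at the 5 prime and 3 prime ends of control transcripts, of each array as a covariate the change between days was called for 3 genes in place of 451, and the day 14 difference for 37 in place of 917. The 3 were Adamtsl4, Slc36a2 and Cd69, Slc36a2 being named only for this count. That signal was 0.064 to 0.16 in IFNAR-/- day 14 arrays, against -0.91 to -0.18 in wildtype day 14 arrays, and its part in the change was not tested. At day 7 it was -0.52 to 0.11 in IFNAR-/- arrays, against 0.078 to 0.18 in wildtype arrays, and with it as a covariate 173 genes were lower and 152 higher.

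**Figure D5:**
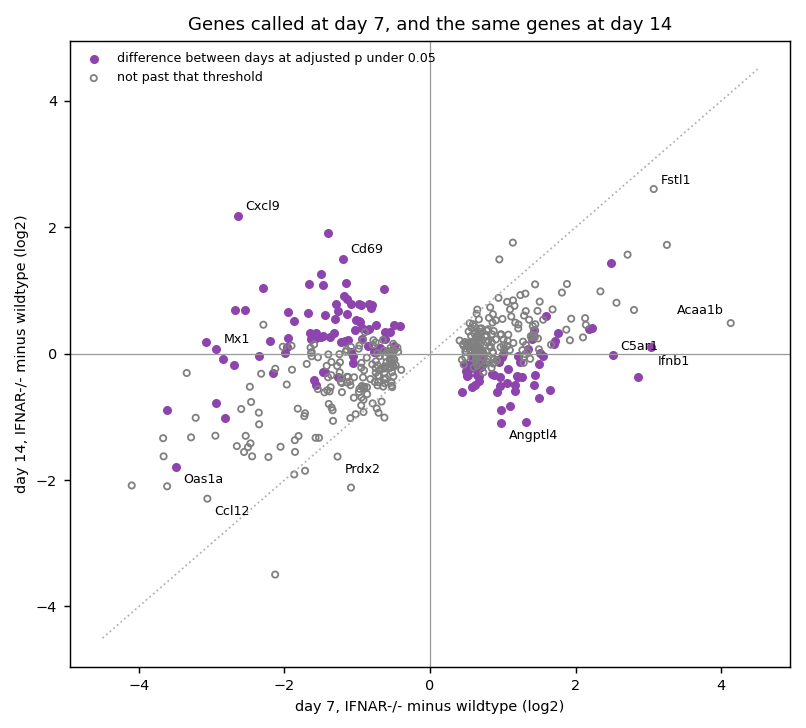
Difference between IFNAR-/- and wildtype mice at day 7 (horizontal) and at day 14 (vertical), both in log2 units, for the 481 genes called at day 7; filled purple points had an adjusted p under 0.05 for the change between days, and the dotted line marks equal differences. Oas1a and Ccl12 lay below 0 at both days, and Cxcl9 and Cd69 crossed to positive differences at day 14.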

How the data were processed

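Per the labels' protocols, RNA of CD11c+ lung cells from 1 mouse per array was turned into biotin-labelled cRNA and measured on Affymetrix arrays, 3 arrays in each of 4 groups. RMA was used, per the submitters' processing notes; its version and options are not given in the sources used here. The deposited values are linear ratios, read from the values: 99.996% of the 45101 probe sets had a median within 0.02 of 1 over the 12 arrays. They carry no count or depth, so the number of arrays limits the precision, and no table of detection was used.

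Of the probe sets, 64 controls, 9160 with no gene symbol and 932 with several were left out, and 3 values were missing. The log2 ratios of the other 34945 were averaged per symbol into 18193 genes, 9183 of them from 1 probe set, with symbols updated through Entrez identifiers for 34741 probe sets. No other columns were present. A linear model with 1 mean per group was fitted to all 12 arrays in limma 3.58.1 (R 4.3.3; tables with Python 3.11.15 and pandas 2.3.3), with 8 residual and 3.21 prior degrees of freedom, moderated two-sided tests and Benjamini-Hochberg adjustment over all genes at a threshold of 0.05. The procedure was tested on simulated data with independent noise for each gene. The simulated arrays held no outlying array and no shared shift of cell markers, so this says nothing of the effect of such arrays. Nothing says whether mice were littermates or arrays were run together, so p-values measure the spread between these mice and arrays.

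Genes were named by rule: the 20 largest rises and falls among called genes whose groups did not overlap, up to 6 called and 2 uncalled members of each of 40 lists, a set of pathway genes, called genes among 50 measured neighbours on each side of Ifnar1, the 8 called genes each way with the lowest p of the difference between days, and members of runs of 3 or more called neighbours. Exceptions are stated as chosen after their values were seen, apart from genes named without values. The comparison, the members and the lists were chosen with earlier results of these data known. Promoter windows came from RefSeq (GRCm38.p6) and matched 14452 genes by symbol. Alternatives covered normalization, probe set choice, a filter, variance prior, array weights, mouse number as a block, control signals as covariates, arrays left out and a fold threshold. Mouse numbers mark different animals and were not used as pairs in the main fit. The correlation of deviations from the group means of same-numbered mice was -0.397, 0.0663 and -0.323 at day 7, and -0.237, -0.0603 and 0.232 at day 14. It was 0.443 for IFNAR-/- mouse 3 and wildtype mouse 1 at day 7. With 3 arrays per group these values cannot show whether same-numbered samples were handled together.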

Additional observations from a re-analysis of the deposited data

Results flagged for a closer look

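For the following genes of the text the difference between IFNAR-/- and wildtype mice changed between the days, with an adjusted p under 0.05 for the day 14 difference less the day 7 difference, given here in log2 units. Over all genes 2.48% passed that test. Genes named for their day 7 difference are favoured by that choice to change towards the other sign, since the day 7 difference is part of the change. Among interferon genes and their regulators the change was upwards for Dhx58 (1.37), Eif2ak2 (1.74), Epsti1 (1.02), Ifi209 (2.73), Ifi213 (2.75), Ifi35 (0.77), Irf8 (1.77), Mx1 (3.02), Mx2 (0.81), Oas1a (1.71), Oas3 (1.79), Socs1 (2.07), Stat4 (2.56), Sting1 (1.63), Trim30a (1.18) and Zbp1 (2.31). It was downwards for Ifnb1 (-2.92), whose RNA was high in IFNAR-/- mice at day 7.

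In antigen presentation, costimulation, chemokines and the interferon gamma axis the change was upwards for Ccr7 (2.07), Cd74 (0.86), Cd86 (1.81), Ciita (1.62), Cx3cr1 (1.655), Cxcl9 (4.82), Cxcr6 (3.82), H2-Aa (1.41), H2-Ab1 (1.46), H2-DMa (1.19), H2-Eb1 (0.89), Ifng (3.96) and Psme1 (0.96). Among markers of cell types and receptors for antibody, complement or fungi it was upwards for Clec5a (2.77), Clec7a (0.97), Fcgr2b (0.91), Gzmb (4.15), Icos (2.05), Il2rb (1.76), Itgae (1.86), Klrk1 (3.34), Kmo (1.97), Ms4a4c (2.19) and Ms4a6c (1.22). Further upward changes were found for AA467197 (2.51), Asb11 (2.15), Cd69 (2.70), Gm8369 (0.95), Grasp (2.29), Kynu (1.89), Lap3 (1.53), Mlkl (2.41), Ms4a4b (3.31), Nr4a2 (2.75), Ripk3 (1.25), Slamf7 (3.27) and Slamf8 (3.37).

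Downward changes, of genes that were mostly higher in IFNAR-/- mice at day 7, were found for Adamtsl4 (-3.22), Angptl4 (-2.08), Btbd1 (-1.05), C5ar1 (-2.54), Cd163 (-4.38), Dcun1d3 (-1.53), Ech1 (-1.32), Fam241b (-1.05), Polr3gl (-1.48), Slc36a2 (-3.11), Spic (-1.80), Ssh2 (-1.59), St6galnac1 (-1.82), St6galnac2 (-1.0) and Zfp760 (-1.76), and for Fkbp5 (-1.51), Tsc22d3 (-0.84) and Zbtb16 (-1.59), which were chosen after their values were seen. With the 5 prime over 3 prime control signal as a covariate, 3 of the 451 genes called for this change were still called, Adamtsl4, Slc36a2 and Cd69, and that signal separates the genotypes at day 14. Groups of 3 arrays are too small for a test of single outlying arrays.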

How the results depend on the processing

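At day 7, 246 genes were lower and 235 higher in IFNAR-/- mice. Counts were 930 and 952 with array weights, 111 and 90 without IFNAR-/- mouse 3 and wildtype mouse 1, 149 and 128 with the poly-A control signal as a covariate, 139 and 94 with a 2-fold minimum, and 147 lower when only the 6 arrays were fitted. With the 5 prime over 3 prime signal as a covariate 152 were higher. With 1 array left out, 110 to 252 were lower and 97 to 212 higher, fewest without IFNAR-/- mouse 1 and without wildtype mouse 2. At day 14 the 917 calls became 1899 with array weights, 37 with the 5 prime over 3 prime signal, 362 with only the arrays compared, 310 with a 2-fold minimum and 384 to 794 with 1 array left out. The 451 calls of the change between days became 1765 with array weights, 200 without the same pair of arrays, 3 with the 5 prime over 3 prime signal, 176 with the poly-A signal, 296 with a 2-fold minimum and 138 to 485 with 1 array left out. The cause was not tested, except that leaving out arrays or raising the minimum also lowers what can be called.

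With mouse number as a replicate block, 221 genes were lower and 197 higher at day 7, 679 were called at day 14 and 325 changed between days, and of 140 named genes called at day 7, 117 were called with it. Whether same-numbered samples were handled together is not known. The other settings kept each count within 1.5 times. Of 4501 results of named genes under alternatives, 3 reversed, each for 1 probe set by itself: Marchf1 (0.03), Mrap (-0.02) and Nr4a2 (0.03). The small number of arrays and the lack of a signal level limit what can be said of dim genes.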

Other observations

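A group of genes that fitted none of the lists rose in IFNAR-/- mice at day 7. Fkbp5, a co-chaperone of steroid receptors, had log2 ratios of 1.46, 1.24 and 1.39 in IFNAR-/- mice, against -0.081, -0.38 and 0.023 in wildtype mice (difference 1.51 ± 0.17, adjusted p 0.000868 in limma). Zbtb16, a transcription factor, had 1.46, 1.32 and 2.07 in IFNAR-/- mice, against 0.29, -0.0079 and -0.097 in wildtype mice (difference 1.56 ± 0.20, adjusted p 0.00252 in limma). Tsc22d3, the glucocorticoid-induced leucine zipper, had 0.68, 0.63 and 0.78 in IFNAR-/- mice, against 0.25, 0.10 and -0.32 in wildtype mice (difference 0.68 ± 0.13, adjusted p 0.0218 in limma). Fkbp5 and Zbtb16 were called in all 6 fits that left out 1 day 7 array and Tsc22d3 in 2 of them. The groups did not overlap in these 3 genes, which glucocorticoids are known to induce. Of other genes known for that, Klf9 (difference 0.49 ± 0.27, adjusted p 0.522), Per1 (difference 0.35 ± 0.23, adjusted p 0.632), Sgk1 (difference 0.29 ± 0.13, adjusted p 0.348) and Dusp1 (difference 0.11 ± 0.16, adjusted p 0.902) did not pass the limma test. All 7 were chosen after their values were seen, so the set supports nothing by itself.

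Some genes stood far from all other arrays on 1 array. On IFNAR-/- mouse 3 at day 7, 9 genes were at least 2.5 log2 units above the other 11 arrays, among them Alas2, an enzyme of haem synthesis in red cells (4.83), Ido1 (4.90), the neutrophil gene S100a9 (3.32), Timp3 (4.18) and Ogn (5.22). On wildtype mouse 1 the airway secretory gene Bpifa1 was at 8.16, against 3.54 on the next array.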
